A study of Mus musculus with 14 samples.

Results

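The 10 genes described here, listed as pluripotency factors, encode 9 transcription factors and 1 RNA-binding protein: Pou5f1, Nanog, Sox2, Klf4, Klf5, Klf17, Esrrb, Zfp42, Lin28a and Sall4. They were listed by name out of 20242 gene symbols in the expression tables, not by a rule on their values, though earlier results of these data were known. Each was followed in all 14 embryos to see which had RNA at the 2-cell stage and which did not. The embryos were made by somatic cell nuclear transfer (SCNT), in which the nucleus of an adult cumulus cell replaces the chromosomes of an oocyte, on the B6D2F1 background. Every embryo was activated with strontium chloride and cytochalasin B, cultured in the same medium with deionized albumin, and collected and sequenced by itself at 28 h, so each value is 1 embryo.

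The groups differed in 2 agents. Trichostatin A (TSA), an inhibitor of histone deacetylases, was given at 50 nM for the first 8 h, and vitamin C (VC), a cofactor of enzymes that demethylate histones and DNA, at 10 µg/ml for 0-8 h or for 8-15 h. There were 3 control embryos with neither agent, 1 VC(0-8 h), 2 VC(8-15 h), 3 TSA(0-8 h), 2 embryos with TSA and VC(0-8 h) and 3 with TSA and VC(8-15 h). Since the TSA window was always 0-8 h, the combined groups are written TSA+VC(0-8 h) and TSA+VC(8-15 h) from here on. Values are RPKM, reads scaled for transcript length and library size. This scaling does not remove shifts that all entries of an embryo share, so the shift over all entries is given with the comparisons below. The read totals behind the RPKM values, nearly all of them reads counted on the entries, were 3021540 to 13589389 per embryo. Of the 25650 transcript entries, 3322 to 6728 reached 1 RPKM in an embryo. Markers were checked against the labelled stage. Of 14 oocyte genes, 3 (Btg4, Bmp15 and Oosp1) reached 1 RPKM in every embryo and 11 in some, down to Zar1 in 2 embryos and Ooep and H1f8 in 3. Of 12 cumulus cell genes, 11 stayed under 1 RPKM in all 14 embryos, with Fshr and Inhba at 0, Has2 was over it once, the next by mean (Tnfaip6, Cyp19a1 and Col4a1) were at 0.293 RPKM at most, and the summed level of the 12 was 0 to 1.82 RPKM.

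Pluripotency rests on a small network in which POU, Sox and homeodomain proteins bind together at the same enhancers and sustain their own genes, and Krüppel-like factors, the nuclear receptor Esrrb and zinc finger proteins such as Sall4 reinforce it. In the mouse, some of these RNAs are stored in the egg, whereas others are made only once the embryo's own genome has been switched on. The inner cell mass later holds many of them together. No oocyte was sequenced in the samples used here, so RNA left from the egg and RNA made by the embryo cannot be told apart, nor can less RNA per cell from fewer cells that hold it.

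These proteins act on one another's genes, and the stretches below are shown because they hold a POU sequence. TTTGCAT, the core of the sequence that POU proteins such as the Pou5f1 product recognise, was searched on both strands in the 250 bases before each start in RefSeq promoters of build GRCm38.p6 (8 of the 10 members were in the table). It was found in 4.12% of 32851 promoter entries and in 4 of 11 entries of the members, those of Nanog, Sox2 and Zfp42. The windows of Pou5f1, Klf4, Klf17, Lin28a and Esrrb, which was also under 1 RPKM in most embryos, did not hold these letters. Each stretch reads 5′ to 3′ along its gene's strand, with the 7 matched bases in capitals; in Sox2 they are the letters of the other strand.
Nanog, chr6:122707389-122707445, plus strand: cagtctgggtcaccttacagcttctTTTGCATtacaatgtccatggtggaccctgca
Sox2, chr3:34649871-34649927, plus strand: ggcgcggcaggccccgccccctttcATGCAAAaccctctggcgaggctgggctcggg
Zfp42, chr8:43307163-43307219, minus strand: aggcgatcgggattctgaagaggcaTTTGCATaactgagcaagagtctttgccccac
In Nanog the match begins 75 bases before the start and runs on into acaatg, the letters that Sox proteins recognise. That longer pattern, TTTGCAT followed by any 1 base and then by ACAATG, searched on both strands and containing the shorter one, occurred in 2 of the 32851 promoter entries, both of Nanog. A match of letters describes the sequence and says nothing about binding in these embryos.

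At a threshold of 1 RPKM, Lin28a and Klf17 were present in all 14 embryos, Pou5f1 in 13, Sall4 in 10, Klf4 and Klf5 in 8 each, Esrrb in 4 and Zfp42 in 3. Nanog and Sox2 were present in none. A single embryo had 3 to 7 of the 10 genes, the fewest in VC(8-15 h) replicate 2, which also had the fewest entries at 1 RPKM (3322). The 3 embryos with 7 genes came from 3 different treatments, VC(8-15 h), TSA+VC(0-8 h) and TSA+VC(8-15 h), and had 5720 to 6728 entries at 1 RPKM. The pattern of presence and absence is drawn in the grid of the 10 genes by embryo.

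**Figure D1:**
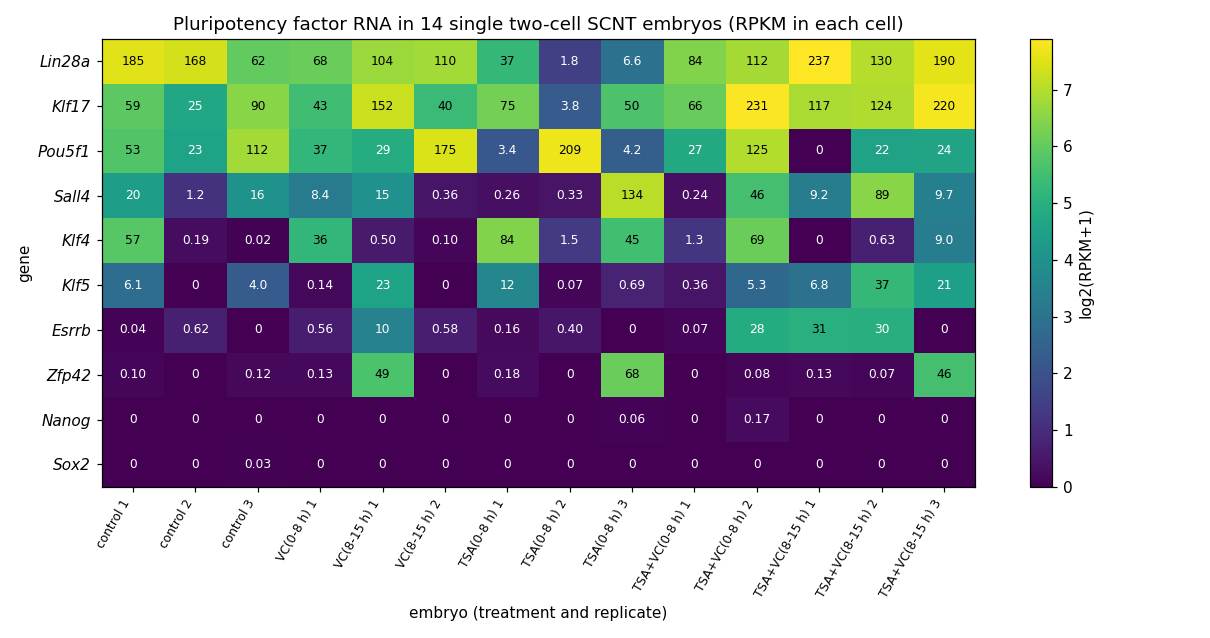
Grid of the 10 genes (rows) by the 14 single embryos (columns, named by treatment and replicate); the number in each cell is RPKM and the colour is log2(RPKM+1). Lin28a and Klf17 are above 1 RPKM in every column, Nanog and Sox2 never exceed 0.169 RPKM, and the genes between them switch from near 0 to over 10 RPKM between embryos of the same treatment.

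The core trio was split. Pou5f1 (NM_013633, mm9 chr17:35642982-35647721, plus strand) encodes Oct4, the POU factor on which the inner cell mass depends. Its levels were 52.6, 23.1 and 112 RPKM in the controls, 36.8 RPKM in the VC(0-8 h) embryo, 28.9 and 175 RPKM with VC(8-15 h), 3.42, 209 and 4.21 RPKM with TSA(0-8 h), 27.0 and 125 RPKM with TSA+VC(0-8 h), and 0, 22.3 and 23.7 RPKM with TSA+VC(8-15 h). Both the highest level and 2 of the 3 lowest were therefore in TSA(0-8 h) embryos, all 3 of which lay outside the control range, and 2 of the 3 TSA+VC(8-15 h) embryos lay below it. The embryo at 0, TSA+VC(8-15 h) replicate 1, held 0 reads of Pou5f1 in a total of 4343837 counted reads. The second Pou5f1 entry of the annotation (NM_001252452) had 0 reads in all 14 embryos.

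Nanog, the homeodomain factor of the inner cell mass, and Sox2, the HMG-box partner of Oct4, were not detectable at this depth. Nanog (NM_028016, mm9 chr6:122657507-122664651, plus strand) had 0 reads in 12 embryos, 1 read in TSA(0-8 h) replicate 3 and 3 reads in TSA+VC(0-8 h) replicate 2, which is 0.0627 and 0.169 RPKM. Sox2 (NM_011443, mm9 chr3:34548927-34551383, plus strand) had 1 read in control replicate 3 (0.0300 RPKM) and 0 in the other 13 embryos. Over the 14 libraries together, 109920129 counted reads included 4 of Nanog and 1 of Sox2, against 10052 of Pou5f1, 39546 of Lin28a and 42893 of Klf17. A count of 0 allows up to 3 reads, which is 0.163 to 0.732 RPKM for Nanog and 0.0899 to 0.404 RPKM for Sox2, depending on the library, for counting error only. Among 19 measured Sox genes, a family list added after the values were seen, 13 stayed under 1 RPKM in every embryo, and the highest by mean, Sox13, reached 1 RPKM in 7 embryos.

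Of the Krüppel-like factors, which bind GC-rich promoter sequence, only Klf17 was present throughout. Klf17 (NM_029416, mm9 chr4:117430441-117438253, minus strand), a member of the family first described in germ cells, was at 58.9, 25.3 and 90.0 RPKM in the controls, 43.4 RPKM with VC(0-8 h), 152 and 40.4 RPKM with VC(8-15 h), 74.8, 3.81 and 50.4 RPKM with TSA(0-8 h), 66.2 and 231 RPKM with TSA+VC(0-8 h), and 117, 124 and 220 RPKM with TSA+VC(8-15 h). All 3 TSA+VC(8-15 h) embryos lay above all 6 control and TSA(0-8 h) embryos. Its median over the 14 embryos was 70.5 RPKM, and within its embryo its level stood at the 89.2 to 99.1 percentile of the 25650 entries.

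Klf4, one of the factors that can reprogram fibroblasts to pluripotency, ranged from 0 to 84.2 RPKM. Klf4 (NM_010637, mm9 chr4:55540013-55545347, minus strand) was at 56.8, 0.19 and 0.02 RPKM in the controls, 36.2 RPKM with VC(0-8 h), 0.50 and 0.10 RPKM with VC(8-15 h), 84.2, 1.51 and 44.8 RPKM with TSA(0-8 h), 1.31 and 68.6 RPKM with TSA+VC(0-8 h), and 0, 0.63 and 8.96 RPKM with TSA+VC(8-15 h). The control, TSA(0-8 h) and TSA+VC(0-8 h) groups each spanned from under 2 RPKM to over 50 RPKM, whereas both VC(8-15 h) embryos were at 0.50 RPKM or less, below every TSA(0-8 h) and TSA+VC(0-8 h) embryo. It reached 1 RPKM in 6 of the 8 embryos that had TSA, among them embryos at 1.51 and 1.31 RPKM, and 2 of the 6 that had none. The share of all entries with such a split was not counted. In the model over all embryos given below, its TSA term was 1.22 (SE 1.43, log2, unadjusted p 0.399 in limma).

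Klf5, which acts in both the inner cell mass and the trophectoderm, was lower. Klf5 (NM_009769, mm9 chr14:99697910-99712624, plus strand) was at 6.09, 0 and 3.97 RPKM in the controls, 0.14 RPKM with VC(0-8 h), 22.9 and 0 RPKM with VC(8-15 h), 11.7, 0.07 and 0.69 RPKM with TSA(0-8 h), 0.36 and 5.27 RPKM with TSA+VC(0-8 h), and 6.81, 37.1 and 20.8 RPKM with TSA+VC(8-15 h). The 3 TSA+VC(8-15 h) embryos were all above the 3 controls, though the lowest of the former exceeded the highest of the latter by little (6.81 against 6.09 RPKM). Of 17 Klf genes measured, a list likewise added after the values were seen, Klf17 was alone in reaching 1 RPKM in all 14 embryos. It also had the highest mean level (92.7 RPKM). Another 12 reached 1 RPKM in some embryos and 4 in none. Highest by mean among the 12 were Klf11 (in 12 embryos), Klf7 (9), Klf16 (8) and Klf9 (10). Klf2, another factor of the naive state, reached 1 RPKM in 1 embryo.

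Esrrb, an orphan nuclear receptor that shares many targets with Nanog, was found in 4 embryos, all of which had received vitamin C. Esrrb (NM_011934, mm9 chr12:87702067-87862578, plus strand) was at 10.4 RPKM in VC(8-15 h) replicate 1, 28.2 RPKM in TSA+VC(0-8 h) replicate 2, and 31.3 and 29.6 RPKM in TSA+VC(8-15 h) replicates 1 and 2. The other 10 embryos lay between 0 and 0.62 RPKM, and 4 of these had also received vitamin C, so the groups with and without it overlapped. The 4 embryos with Esrrb had 5489 to 6728 entries at 1 RPKM, in a range of 3322 to 6728 over all embryos. Of the 8249 entries tested in the model over all embryos given below, 66.8% were higher with vitamin C. How many entries were found only in vitamin C embryos was not counted, and the part of these limits in the Esrrb values was not tested. Its second entry (NM_001159500) had 0 reads in every embryo. The related receptor Esrrg reached 1 RPKM in 8 embryos and Esrra in none.

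Zfp42, the zinc finger protein Rex1 that is used as a marker of naive cells, was found in 3 embryos at a high level and hardly at all in the rest. Zfp42 (NM_009556, mm9 chr8:44380422-44392363, minus strand) was at 49.1 RPKM (872 reads) in VC(8-15 h) replicate 1, 67.6 RPKM (1430 reads) in TSA(0-8 h) replicate 3 and 46.2 RPKM (1022 reads) in TSA+VC(8-15 h) replicate 3. In 7 embryos there were 1 to 3 reads and in 4 there were 0. The 3 embryos had 3 different treatments and came from 2 of the 3 library pools, and each had at least 1 replicate of the same treatment at 0.13 RPKM or less.

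Sall4, the spalt family zinc finger protein that binds the Pou5f1 gene, varied as widely. Sall4 (NM_175303, mm9 chr2:168573832-168593443, minus strand) was at 19.99, 1.23 and 15.7 RPKM in the controls, 8.38 RPKM with VC(0-8 h), 14.9 and 0.36 RPKM with VC(8-15 h), 0.26, 0.33 and 134 RPKM with TSA(0-8 h), 0.24 and 46.2 RPKM with TSA+VC(0-8 h), and 9.21, 88.9 and 9.68 RPKM with TSA+VC(8-15 h). The TSA(0-8 h) group held the highest embryo and 2 of the 4 embryos under 1 RPKM. The shorter Sall4 entry (NM_201395) took a different share of the gene's reads from embryo to embryo. It had 1019 reads beside 3070 of the longer entry (24.9%) in TSA+VC(0-8 h) replicate 2 and 26.2% of the reads in TSA+VC(8-15 h) replicate 3, but 1 read beside 7978 in TSA(0-8 h) replicate 3. How reads of exons that both entries share were divided is not given in the sources used here. Sall1, Sall2 and Sall3 stayed under 1 RPKM in all embryos.

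Lin28a, which binds RNA and blocks maturation of the let-7 microRNAs, was the most abundant member in the median embryo. Lin28a (NM_145833, mm9 chr4:133559245-133574756, minus strand) was at 185, 168 and 62.4 RPKM in the controls, 67.6 RPKM with VC(0-8 h), 104 and 110 RPKM with VC(8-15 h), 37.1, 1.80 and 6.65 RPKM with TSA(0-8 h), 83.8 and 112 RPKM with TSA+VC(0-8 h), and 237, 130 and 190 RPKM with TSA+VC(8-15 h). The 3 TSA(0-8 h) embryos were the 3 lowest of the 14, and none of the 5 embryos that had TSA together with vitamin C was among them. How many of all entries set this group apart from every other embryo was not counted. Of entries tested, 18.5% did not overlap between TSA(0-8 h) and control, and 21.8% between TSA+VC(8-15 h) and TSA(0-8 h). Means were 138 ± 66.3 RPKM in the controls, 15.2 ± 19.1 RPKM with TSA(0-8 h) and 186 ± 53.9 RPKM with TSA+VC(8-15 h) (SD, n = 3 embryos each). The TSA(0-8 h) embryo was the lowest of the 3 groups in each of the 3 library pools. TSA(0-8 h) embryos also had few entries at 1 RPKM (3556 to 4249), and the part of this in the Lin28a values was not tested.

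**Figure D2:**
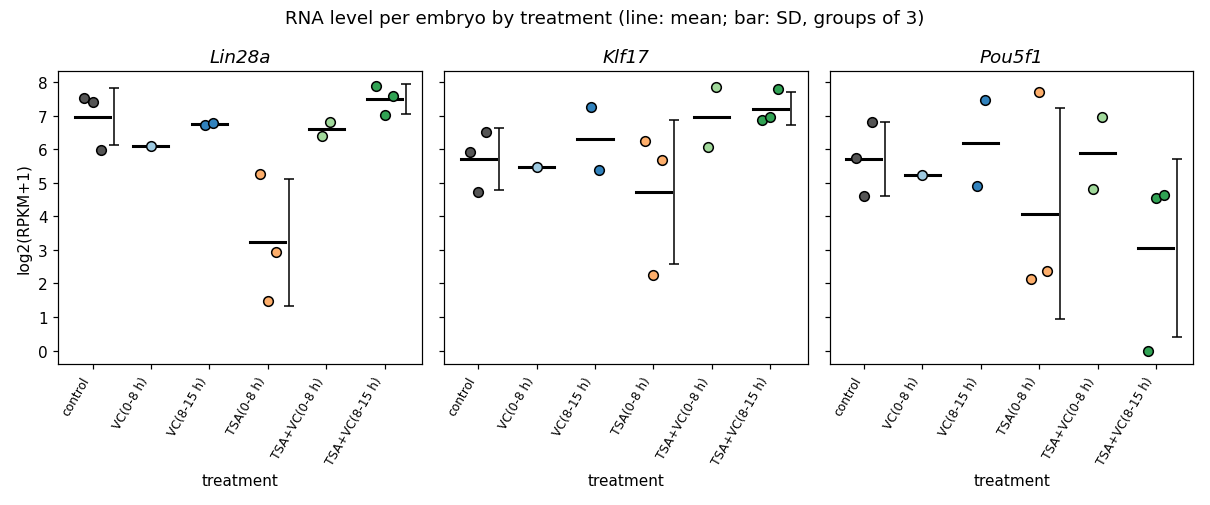
RNA level of Lin28a, Klf17 and Pou5f1 on the log2(RPKM+1) scale in each embryo (points) by treatment; the line is the group mean and the bar is the SD in groups of 3. For Lin28a the 3 TSA(0-8 h) embryos, at 1.80 to 37.1 RPKM, lie below the other 11, whereas Pou5f1 spreads from 3.42 to 209 RPKM within TSA(0-8 h) alone.

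Switching between embryos was common over all genes in these libraries. Of 10758 entries that reached 10 RPKM in at least 1 embryo, 848 (7.88%) never fell under 1 RPKM and 6778 (63.0%) were under it in 7 or more embryos. Of the 8 members that reached 10 RPKM, 2 (Lin28a and Klf17) never fell under 1 RPKM and 2 (Esrrb and Zfp42) were under it in 7 or more. The median number of embryos under 1 RPKM was 5 for the 8 members and 9 for all such entries, as the histogram of absences places them. Labels give the same amount of each embryo's RNA as input, 2 of 9 µl, and its part in these absences was not tested.

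**Figure D3:**
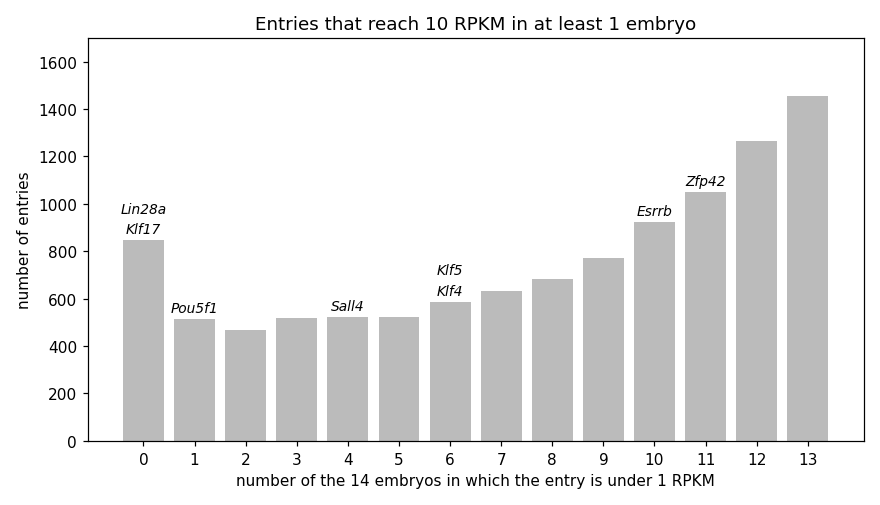
Number of transcript entries (vertical axis) by how many of the 14 embryos have them under 1 RPKM (horizontal axis), for the 10758 entries that reach 10 RPKM in at least 1 embryo. The 8 members that qualify are named above their bars: Lin28a and Klf17 at 0 embryos, Pou5f1 at 1, Sall4 at 4, Klf4 and Klf5 at 6, Esrrb at 10 and Zfp42 at 11.

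Whether the treatments changed these RNAs was asked by limma on log2(RPKM+1), fitted over all entries that reached 1 RPKM in every embryo of either group, with Benjamini-Hochberg adjustment. No member passed an adjusted p of 0.05 in any comparison. A member could enter only through a group in which it was high in all 3 embryos, as Klf5 did through TSA+VC(8-15 h) and Klf4 through TSA(0-8 h), so the members tested are not a fair sample of the 10. The study describes the nuclear transfers of the combined treatment as separate experiments, and the labels do not tie single embryos to an experiment.

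In TSA(0-8 h) against control embryos, which asks what the deacetylase inhibitor alone did, 5 members were tested and none passed (0.119% of all 2529 entries did). Lin28a differed most, by -3.75 (SE 1.72, log2 fold change), with an unadjusted p of 0.0373 and an adjusted p of 0.277 in limma, and was lower in all 3 TSA(0-8 h) embryos than in any control. It was 1 of 5 members with an unadjusted p under 0.05, against 15.2% of all entries, and 1 of 5 whose groups did not overlap, against 18.5%. Klf4 differed by 2.37 (SE 2.05), Pou5f1 by -1.64 (SE 1.88), Klf17 by -0.98 (SE 1.69) and Sall4 by -0.60 (SE 1.91), each with an adjusted p of 0.655 or more in limma. The median over the 5 members was -0.98 and over all entries -0.38. The sign for Klf17 and for Sall4 rested on single embryos: without TSA(0-8 h) replicate 2 they were 0.25 and 0.50, and without replicate 1 Sall4 was 0.54. Leaving out 1 embryo at a time, Klf4 ranged from 1.37 to 4.28 and Pou5f1 from -3.45 to -0.67.

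In TSA+VC(8-15 h) against control embryos, the comparison of the combined treatment, 5 members were tested and none passed (0.0293% of 3416 entries did). Klf5 differed by 2.51 (SE 1.55) and Klf17 by 1.50 (SE 0.94), and both were higher in all 3 treated embryos than in any control. Thus 2 of 5 members did not overlap, against 22% of all entries. Klf5, at 0 RPKM in control replicate 2, entered only through the treated group, so its separation is not counted as a result. Pou5f1 differed by -2.66 (SE 1.69), which without the embryo at 0 was -1.13, Sall4 by 1.22 (SE 1.75) and Lin28a by 0.53 (SE 0.77). Without control replicate 2 or without TSA+VC(8-15 h) replicate 2 Sall4 was 0.19 or 0.18, without control replicate 2 Klf5 was 1.65, and without control replicate 3 Lin28a was 0.0355. The adjusted p of the 5 in limma ran from 0.416 to 0.771, and no member had an unadjusted p under 0.05, which 18.4% of entries had. All entries together were shifted, with a median of 0.78, beside a members' median of 1.22; after quantile normalization these were 0.29 and 0.57.

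In TSA+VC(8-15 h) against TSA(0-8 h) embryos, which asks what late vitamin C added, 6 members were tested and none passed, nor did any of 3243 entries (0%) in this fit. Lin28a differed by 4.28 (SE 1.44), with an unadjusted p of 0.00926 and an adjusted p of 0.105 in limma, which ranged from 0.0783 to 0.720 over the alternatives. Lin28a and Klf17 (2.48, SE 1.32, adjusted p 0.346) were higher in all 3 embryos of the combined treatment than in any TSA(0-8 h) embryo, 2 of 6 members against 21.8% of all entries, and Lin28a was 1 of 6 with an unadjusted p under 0.05, against 18.6%. Klf4 (-3.08, SE 1.66) and Klf5 (2.71, SE 1.51) overlapped between the groups, as did Sall4 (1.81, SE 2.04) and Pou5f1 (-1.02, SE 2.02). Leaving out TSA(0-8 h) replicate 2 turned Pou5f1 to 0.79, and leaving out TSA+VC(8-15 h) replicate 1 turned it to 0.50. Sall4 was 4.05 without TSA(0-8 h) replicate 3 but 0.68 and 0.72 without replicate 1 or 2 of that group and 0.78 without TSA+VC(8-15 h) replicate 2. Without TSA(0-8 h) replicate 2, Klf17 was 1.25 and Klf4 -4.62. The median over all entries was 1.18, beside a members' median of 2.15; after quantile normalization these were 0.37 and 0.88, and Lin28a differed by 3.58. This comparison and the one against the controls share the same treated embryos, and a 3 against 3 exact permutation test of 1 gene cannot go below p = 0.1, the two-sided value that Lin28a had here.

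**Figure D4:**
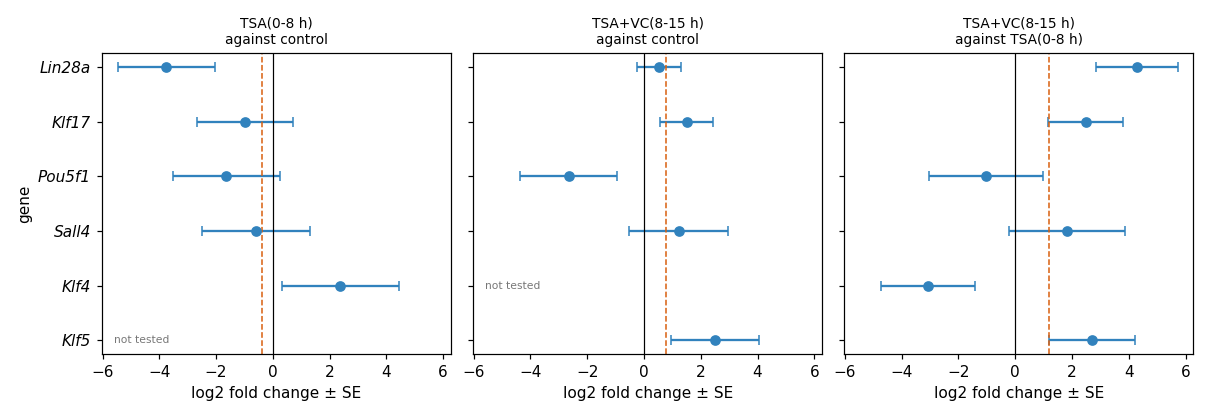
Log2 fold change (points) with its SE (bars) of the 6 members tested in the 3 comparisons between groups of 3 embryos; the dashed line is the median of all entries tested in that comparison (-0.38, 0.78 and 1.18 from left to right). Lin28a lies at -3.75, 0.53 and 4.28, and no member passes an adjusted p of 0.05.

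All 14 embryos were then used in 1 model with a term for TSA and a term for vitamin C in either window, and 8 members passed the filter of 1 RPKM in any 3 embryos. None passed for either term (0.0242% of 8249 entries did for each). For vitamin C, Lin28a differed by 1.98 (SE 0.88, unadjusted p 0.0268, adjusted p 0.635 in limma), Esrrb by 2.13 (SE 1.16, adjusted p 0.657 in limma) and Klf17 by 1.47 (SE 0.87, adjusted p 0.664 in limma), beside a median of 0.52 over all entries, which was 0.04 after quantile normalization. Lin28a was the 1 member with an unadjusted p under 0.05, against 7.39% of entries. For TSA the 8 members lay between -1.66 (Pou5f1, SE 1.14) and 1.22 (Klf4, SE 1.43), none with an unadjusted p under 0.05, which 4.78% of entries had. No member separated the embryos with an agent from those without it, against 0.0849% of entries for TSA and 0.242% for vitamin C.

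Other genes of the network were read from lists. Of 23 further pluripotency transcription factors and cofactors, 5 reached 1 RPKM in all 14 embryos, 9 in some and 9 in none, and none passed in any comparison. Rest, a zinc finger repressor, was at 58.9 to 324 RPKM, Mybl2, a MYB family factor of cycling cells, at 2.71 to 520 RPKM, and Dppa2 at 1.25 to 372 RPKM. Dppa4, the partner of Dppa2, had the highest mean of the list but was over 1 RPKM in only 5 embryos, with a maximum of 4880 RPKM. At the other end, Nr0b1, Prdm14 and Utf1, chosen here for their values, had 0 RPKM in every embryo, like Nanog and Sox2 in nearly all.

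Of 21 signalling genes and stem cell markers, 2 were over 1 RPKM in all 14 embryos, 14 in some and 5 in none, again with none past the threshold. Fbxo15 (4.22 to 778 RPKM), a known target of Oct4 and Sox2, and Tcl1 (6.01 to 493 RPKM), which promotes AKT signalling, were the 2 found throughout. Dppa3, the maternal factor Stella, reached 1 RPKM in 13 embryos with a median of 99.6 RPKM, and Dppa5a in 8. Lin28b, the paralog of Lin28a, reached it in 6 embryos, with at most 60.3 RPKM.

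Markers of neighbouring stages framed these levels. The oocyte genes, of which Npm2 had the next highest mean after the 3 named (over 1 RPKM in 8 embryos), had a summed level of 802 to 2683 RPKM in controls, 1277 to 1817 RPKM with TSA(0-8 h) and 613 to 1251 RPKM with TSA+VC(8-15 h). Of 12 genes of the mouse 2-cell stage, led by Zfp352, Tcstv1, Tdpoz4 and Tdpoz3, all 12 were over 1 RPKM in some embryos and 0 in all, with a summed level of 7.78 to 315 RPKM in controls, 150 to 375 RPKM with TSA(0-8 h) and 428 to 601 RPKM with TSA+VC(8-15 h). In that last group against controls, 6 of the 12 were tested and none passed. All 6 had a higher mean, as did 64.7% of all entries tested. At most 2 of these 6 entered through the controls, since only 2 of the list were tested in TSA(0-8 h) against control. The rest entered only through the group where they were high, so their higher means are not counted as a result. Klf17 and Klf5 also had higher means in that comparison, and the part of this list in their values was not tested. Of 11 blastocyst lineage genes, 7 stayed under 1 RPKM in every embryo, among them Cdx2, Gata3, Gata6 and Sox17, and 4 reached it in some (Gata4 in 10 embryos, Tead4 in 3, Eomes in 2 and Elf5 in 1). Their summed level was 1.26 to 3.29 RPKM in controls, 0.876 to 57.8 RPKM with TSA(0-8 h) and 68.8 to 165 RPKM with TSA+VC(8-15 h). The last group did not overlap the controls or TSA(0-8 h), as for Klf17. Of single entries tested, 22% and 21.8% did not overlap in these comparisons, which is not a like measure for a sum of genes. How often sums of other lists did not overlap was not counted. The TSA+VC(8-15 h) sum did overlap VC(0-8 h) (69.5 RPKM), VC(8-15 h) (0.490 to 96.4 RPKM) and TSA+VC(0-8 h) (33.9 to 99.2 RPKM). The sum rested mostly on Gata4, with a mean of 44.5 RPKM against 5.95 RPKM for Tead4, the next. The part of this list in the Klf17 and Klf5 values was not tested. Gata4, a GATA factor of the primitive endoderm, was the 1 gene of the list tested against controls. It differed by 5.71 (log2) without passing. Since 0 genes of the list were tested in TSA(0-8 h) against control, Gata4 entered only through TSA+VC(8-15 h), where it was high. Its difference is therefore not counted as a result.

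Over the 14 embryos, the Pearson correlation of log2(RPKM+1) for the 15 pairs among the 6 members present in 8 or more embryos (Lin28a, Klf17, Pou5f1, Sall4, Klf4 and Klf5) ran from -0.30 to 0.72, with a median of 0.0918. The highest were Klf5 with Klf17 (0.72) and Klf17 with Lin28a (0.68), and Pou5f1 was below 0 with each of the other 5. Among 2869 entries at 1 RPKM or more in at least 10 embryos, the patterns most like Lin28a were those of Ythdc1 (0.89) and Wdr77 (0.86), and most like Klf17 those of Sec16a (0.83) and Wipf2 (0.80). For Pou5f1 they were Birc5 (0.84) and Stag1 (0.79), and for Sall4 Txlna (0.90) and Rfk (0.89). These are the highest of 2869 values over 14 points that share library depth, given as a description.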

How the data were processed

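Total RNA of each of 14 embryos was amplified from 2 of 9 µl of extract and sequenced as single-end reads in 3 library pools of 5, 6 and 3 embryos. The authors trimmed the reads, aligned them with TopHat2 to mm9 and deposited 1 RPKM value per RefSeq entry and embryo, with no replicate pooled. The RPKM values were whole reads per length and total, so lengths and totals were recovered from the deposited ratios: among 14532 entries found in 2 or more embryos, 14531 (99.99%) came out as whole numbers within 0.001, and 99.7% to 99.96% of reads were accounted for. The entry with the highest mean stood for its gene. Pou5f1 and Nanog have pseudogene copies, and how reads matching several sites were counted is not given in the sources used here.

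Embryos were grouped by GEO's labels; the labels count the 28 h from nuclear transfer and the study's methods from activation. Differences were tested with limma 3.58.1 (lmFit, eBayes with trend, R 4.3.3) on log2(RPKM+1), which understates changes of low genes, with Benjamini-Hochberg adjustment over all entries tested and a threshold of 0.05; the script was checked on simulated data. Alternatives were a pseudocount of 0.1, no filter, a minimum of 5 RPKM, quantile normalization, summed entries, the replicate block or pool block, a single fit of all embryos, each embryo left out, and limma-voom on the recovered reads, which was added after the values were seen. Deviations of same-numbered embryos correlated by under 0.1 in each comparison, so the numbers were not treated as pairs.

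The 10 members and the lists were chosen with earlier results of these data known, and the Klf, Sox, Sall, Lin28 and estrogen-related receptor families were added after the values were seen. All members were named; from each list other than the families the 4 genes with the highest mean, and for members at 1 RPKM in at least 10 embryos the 2 most correlated entries; any other gene was chosen after its values were seen. Motifs were searched in RefSeq promoters (GRCm38.p6), whose coordinates are not those of mm9.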

Additional observations from a re-analysis of the deposited data

Results flagged for a closer look

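A gap test (Dixon's, 95% level) was run for the members over the embryos pooled by agent, 32 groups of 6 or 8 in all. In it, 5 values stood far from the rest of their group. Its rate of 1 in 20 assumes independent values with a normal spread. These groups share embryos, and Zfp42 and Esrrb were near 0 in most of them, so no excess is read from the 5. Pou5f1 was at 0 RPKM in TSA+VC(8-15 h) replicate 1, alone among the 8 embryos with vitamin C. Klf17 was at 3.81 RPKM in TSA(0-8 h) replicate 2, the lowest of the 8 embryos with TSA, an embryo that also had the highest Pou5f1 level (209 RPKM) and the lowest Lin28a level (1.80 RPKM). Zfp42 was at 67.6 RPKM in TSA(0-8 h) replicate 3, among the 6 embryos without vitamin C, and at 49.1 RPKM in VC(8-15 h) replicate 1, among the 6 without TSA. In that last embryo and group, Esrrb was at 10.4 RPKM.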

How the results depend on the processing

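No member passed the adjusted threshold under any alternative run, and the lowest adjusted p was 0.0783 (Lin28a, TSA+VC(8-15 h) against TSA(0-8 h), minimum of 5 RPKM). Of 332 fold changes recomputed, 318 kept their direction and 14, from 8 of the 32 results, changed it. In TSA(0-8 h) against control, leaving out each embryo in turn gave -1.74 to 0.25 for Klf17 and -2.83 to 0.54 for Sall4, which was 0.29 after quantile normalization. In TSA+VC(8-15 h) against TSA(0-8 h), leaving out embryos gave -1.99 to 0.79 for Pou5f1. With the library pool as a block, the TSA term was -0.0461 for Zfp42 and -0.0825 for Klf17. Quantile normalization gave a vitamin C term of -0.0175 for Klf5, -0.45 for Sall4 and -0.82 for Pou5f1, which was also -0.15 at a pseudocount of 0.1, -0.0630 with the pool block and -0.11 with limma-voom. With the replicate block, 0 members passed in each of the 3 comparisons and the adjusted p of Lin28a was 0.310 for TSA(0-8 h) and 0.102 for the combined treatment against it. At a detection threshold of 5 RPKM, 0 members were present in all 14 embryos; at 0.5 RPKM and with entries summed the number stayed at 2. For these the cause was not tested. Counts over all entries moved far more: TSA+VC(8-15 h) against control gave 1 higher and 0 lower entries, but 97 and 21 at a pseudocount of 0.1, 171 and 40 at a minimum of 5 RPKM, 14 and 6 with the replicate block and 139 and 53 with limma-voom. Against TSA(0-8 h) it gave 0 and 0, but 174 and 21, 206 and 35, 171 and 25, and 278 and 35 under the same settings, and TSA(0-8 h) against control gave 2 and 1, but 27 and 77, 44 and 83, 2 and 2, and 38 and 85. With 1 embryo per library and at most 3 per group, a difference of the size of 1 within-group SD (a median of 1.34 to 2.36 log2 units among the members tested) could not be told from the spread between embryos.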

Other observations

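A test of whether vitamin C changed the effect of TSA was added after the values were seen, as an interaction term over the 14 embryos. For Lin28a it was 4.36 (SE 1.65, log2), with an unadjusted p of 0.0108 and an adjusted p of 0.927 in limma over 8249 entries, and it was the 1 of 8 members with an unadjusted p under 0.05, which 4.89% of all entries had. Lin28a was at 1.80 to 37.1 RPKM in the 3 embryos with TSA alone and at 83.8 to 237 RPKM in the 5 with both agents.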
